A study of Homo sapiens with 9 samples.

Results

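The genes described here are 40 genes of autophagy and the lysosome, in the human breast cancer line MDA-MB-231, established from a patient's pleural effusion, with and without YM-155 (sepantronium bromide), a small molecule known as a suppressor of survivin. The 40 genes were listed by symbol, and each was read from a probe set that the platform table assigned to that symbol alone, the brightest one where there were several. All 40 were found among the 22109 genes tested. Total RNA was measured on 9 Affymetrix arrays of the whole-transcript type, 3 for each group. The 20 h group received 14.6 ng/ml YM-155, given in the labels as its LC50 (the median lethal concentration). The 8 h group received YM-155 in steps that summed to 83 ng/ml. The control group had no treatment, and neither a vehicle nor a time in culture was given for it. YM-155 was dissolved in DMSO and diluted in HBSS. Dose and time differed together between the treated groups, so their effects cannot be told apart. All values are RMA levels on the log2 scale, so a difference of 1 is a 2-fold change.

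Autophagy encloses cytoplasm in a double membrane, the autophagosome, which then fuses with the lysosome for degradation of its contents. The ULK kinases and the class III PI3-kinase complex start the membrane, and conjugation reactions attach ATG8 proteins (the LC3 and GABARAP families) to it. Cargo receptors link marked cargo to these ATG8 proteins, and the lysosome supplies acid and hydrolases. The transcription factors TFEB and TFE3 switch on many of these genes when the nutrient-sensing Rag GTPases and the FLCN-FNIP complex no longer hold them in the cytoplasm through mTORC1.

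The fit covered all 22109 genes, and a gene was called higher or lower when its limma p-value, adjusted by Benjamini and Hochberg over all of them, was under 0.05. The labels do not say that the 3 arrays of a group came from separate cultures, so each p-value reflects the spread among these arrays alone, and that spread may be technical. Markers of the line were high for 6 of 7 genes listed (VIM, CD44, AXL, CAV1, MSN and FOSL1, but not SPARC), where high means above the median level of all genes, 3.89. Of 7 genes listed as low in the line, CDH1, EPCAM and GATA3 were above that median. Of the 9 leukocyte and phagocyte markers measured, 0 were above it, and PTPRC, the pan-leukocyte surface phosphatase, averaged 1.78. CD14 and ITGAM from that list were called higher at 20 h. The summed log2 level of the 9 markers was 22.2 to 24.1 on the 20 h arrays, 22.2 to 22.5 on the 8 h arrays and 21.9 to 22.1 on the control arrays. The part of other cells in the results was not tested, and in bulk RNA fewer cells of a type and less RNA per cell cannot be told apart. Control replicate 3 stood apart. In the 40 genes its difference from the mean of controls 1 and 2 lay between -0.51 (TAX1BP1) and 0.59 (TFE3), with a median of -0.05, and 10 genes differed by at least 0.3. For those 10 genes, and where leaving it out changed a call against control, the differences from control without that array are given below.

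At 20 h, 12 of the 40 genes were higher than in control cells (30%) and 6 were lower (15%), while 22 were not called. Over all genes tested, 13.1% were called higher and 17.2% lower in that comparison. NEU1, the lysosomal sialidase, FLCN, the folliculin tumour suppressor, and the ATG8 genes GABARAPL1 and MAP1LC3B were each more than 2-fold higher. At 8 h, 8 genes were higher than in control cells (20%) and 2 were lower (5%), against 5.93% and 6.28% of all genes. GABARAPL1 and MAP1LC3B were the 2 genes that were at least 2-fold higher at 8 h. The direct comparison of 20 h with 8 h called 8 genes higher (20%) and 5 lower (12.5%), against 8.95% and 13.6% of all genes. The median difference of the 40 genes was 0.09 at 20 h and 0.06 at 8 h, against medians of 0.03 and 0.00 for all genes, and 0.05 between 20 h and 8 h, against 0.02. In 17 of the 40 genes no comparison passed the test.

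The 40 genes were mostly well expressed, since 39 of them had a mean at or above the median of all genes, and calls are more frequent among such genes. Among the 11055 genes at or above the median level, 20.0% were called higher and 31.1% lower at 20 h, 10.7% and 11.2% at 8 h, and 13.4% and 24.8% between 20 h and 8 h. In each of the 3 comparisons the share of the 40 genes called lower was below that of these genes, and the share called higher was above it, but no test was made of these differences between shares. Both treated groups were compared with the same 3 control arrays, so the 2 comparisons are not independent of each other.

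**Figure D1:**
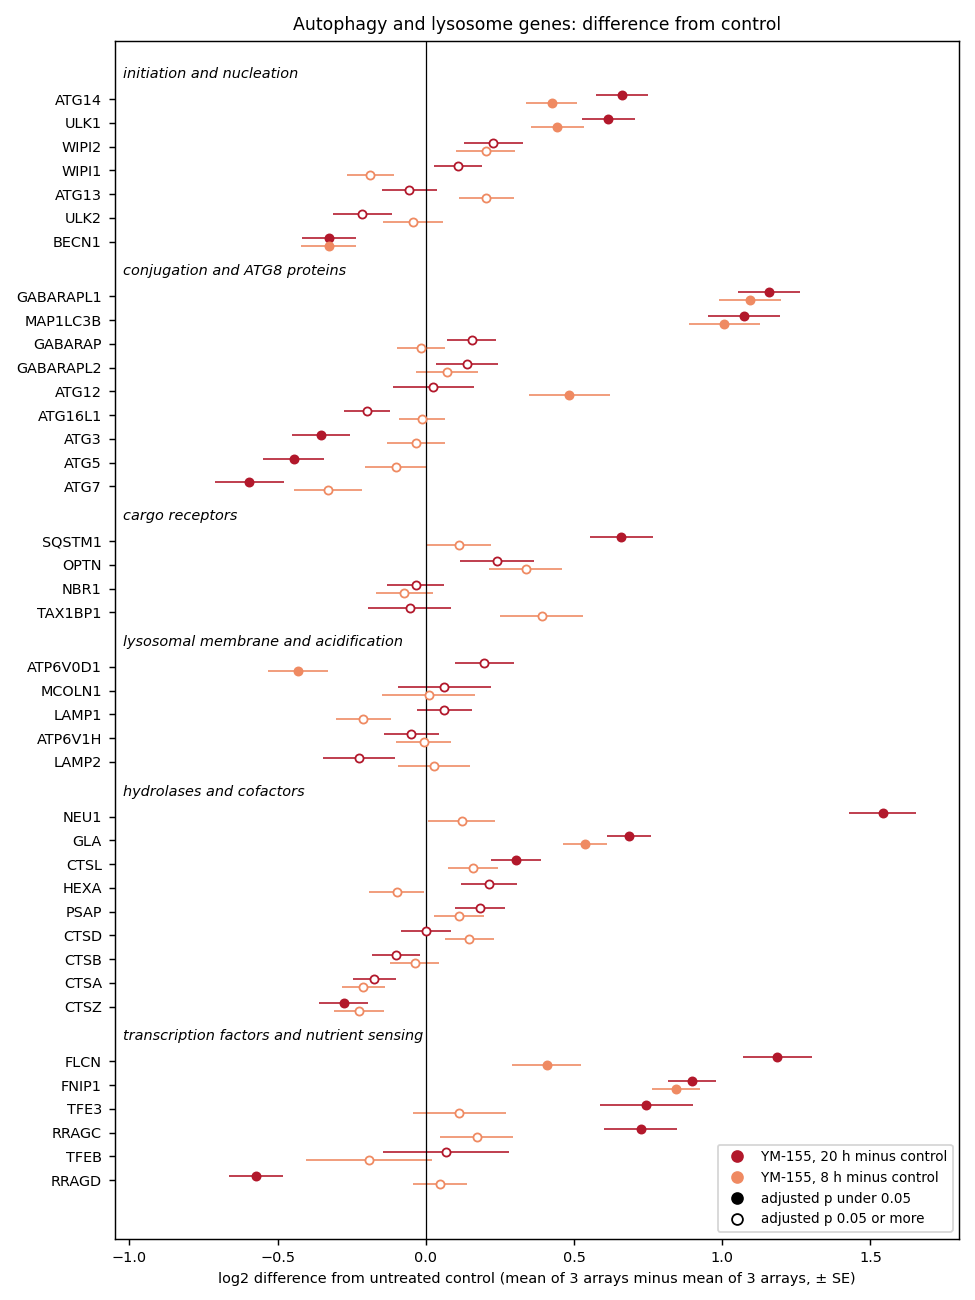
Log2 difference of each of the 40 genes (rows, grouped by role) at 20 h and at 8 h relative to control, with bars of 1 SE from the limma fit and filled points where the adjusted p was under 0.05. NEU1 has the largest difference at 20 h (1.54) and lies near 0 at 8 h (0.12), while MAP1LC3B, GABARAPL1 and FNIP1 have similar differences at both times.

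Of the 6 genes of transcription control and nutrient sensing, 5 were called at 20 h, where 13.1% of all genes were called higher and 17.2% lower, and 20.0% and 31.1% of those at or above the median level. Of these 6, 4 rose at 20 h (FLCN, FNIP1, TFE3 and RRAGC), RRAGD fell and TFEB did not pass the test, and the median difference was 0.73. At 8 h, 2 of the 6 rose (FLCN and FNIP1) and 0 fell, where 5.93% of all genes were called higher and 6.28% lower. Among genes at or above the median level these 8 h shares were 10.7% and 11.2%. FLCN and FNIP1 encode the partners of a complex that activates the GTPase of RagC and RagD, which is needed for mTORC1 to restrain TFEB and TFE3.

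FLCN read 6.84, 6.91 and 6.75 on the 20 h arrays, 6.10, 6.10 and 5.98 on the 8 h arrays and 5.47, 5.56 and 5.92 on the control arrays. The 3 groups did not overlap, with the 8 h arrays between the other groups. FLCN was 2.27-fold higher at 20 h than in control cells (log2 difference 1.19, SE 0.12, limma adjusted p = 3.08e-05) and 1.33-fold higher at 8 h (adjusted p = 0.0481). It was also 1.71-fold higher at 20 h than at 8 h (adjusted p = 0.00102). Control replicate 3 was the highest control, and without it the log2 difference was 1.32 at 20 h and 0.54 at 8 h. The 8 h call was close to the threshold and was lost in 11 of 19 alternative settings, with an adjusted p of up to 0.157.

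FNIP1, the FLCN-binding partner, had levels of 8.89, 8.76 and 8.75 at 20 h, 8.71, 8.70 and 8.83 at 8 h and 7.89, 7.97 and 7.84 in control cells. All 6 treated arrays were above all control arrays, and the treated groups overlapped. Relative to control, it was 1.86-fold higher at 20 h (log2 difference 0.90, SE 0.08, limma adjusted p = 1.74e-05) and 1.80-fold higher at 8 h (log2 difference 0.85, adjusted p = 0.000138). The difference between 20 h and 8 h was 0.05 (SE 0.08, adjusted p = 0.703).

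RagC and RagD are alternative partners of RagA or RagB in the Rag heterodimer, and at 20 h RRAGC rose and RRAGD fell. RRAGC gave 7.36, 7.25 and 7.34 on the 20 h arrays, 6.78, 6.68 and 6.82 on the 8 h arrays and 6.80, 6.69 and 6.28 on the control arrays. The 20 h arrays were above all others, and the 8 h and control arrays overlapped. RRAGC rose 1.65-fold at 20 h (adjusted p = 0.00121), with a log2 difference of 0.17 at 8 h (adjusted p = 0.469) and of 0.55 between 20 h and 8 h (adjusted p = 0.0092). Control replicate 3 was the lowest control, and without it the log2 difference was 0.57 at 20 h in place of 0.72, and 0.02 at 8 h in place of 0.17.

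RRAGD stood at 6.09, 6.36 and 6.14 on the 20 h arrays, 6.73, 6.87 and 6.86 on the 8 h arrays and 6.71, 6.79 and 6.81 on the control arrays. Here the 20 h arrays were below all others. RRAGD fell by 0.57 on the log2 scale at 20 h relative to control (SE 0.09, limma adjusted p = 0.000738) and by 0.62 relative to 8 h (adjusted p = 0.000858), while the 8 h difference from control was 0.05 (adjusted p = 0.819).

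TFE3, a transcription factor of the same family as TFEB, read 7.33, 7.35 and 7.22 at 20 h, 6.83, 6.66 and 6.52 at 8 h and 6.43, 6.29 and 6.95 in control cells. The 20 h arrays were above all others, but control replicate 3 was the highest control and overlapped the 8 h arrays. TFE3 was 1.67-fold higher at 20 h (log2 difference 0.74, SE 0.16, adjusted p = 0.00437), and 0.94 higher on the log2 scale without control replicate 3. At 8 h its difference was 0.11 (adjusted p = 0.748), and 0.31 without that array (adjusted p = 0.101). TFEB itself was the only one of the 40 genes whose mean lay below the median of all genes, with 2.81, 3.17 and 2.34 at 20 h, 2.71, 2.61 and 2.23 at 8 h and 2.59, 3.01 and 2.53 in control cells. Its groups overlapped in every comparison. The difference at 20 h was 0.07 (SE 0.21, adjusted p = 0.851), and its SD was 0.42 at 20 h, 0.25 at 8 h and 0.26 in control cells (n = 3 each).

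**Figure D2:**
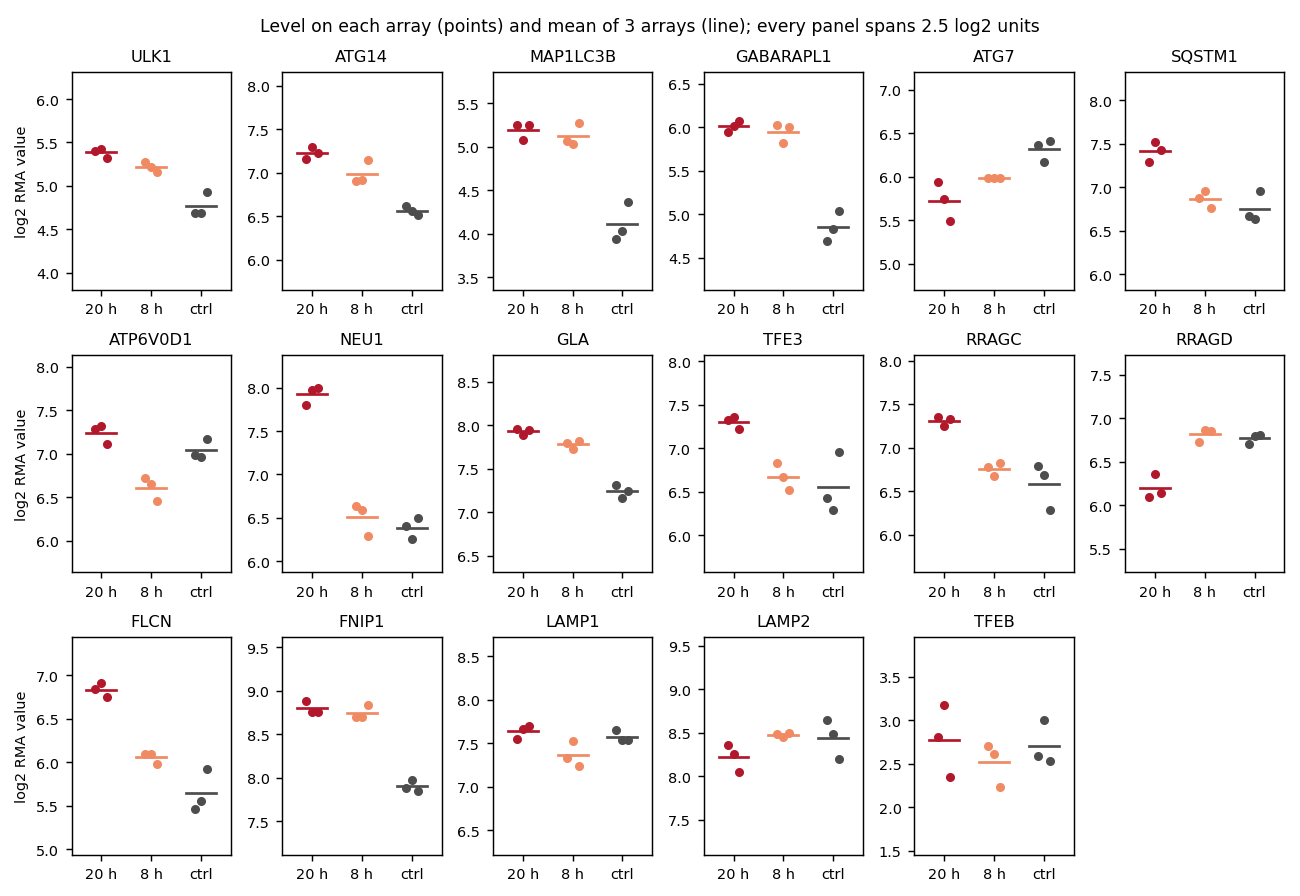
RMA level (log2) on each array for the genes given on every array under the naming rule, all panels spanning the same range, with the 20 h arrays on the left, the 8 h arrays in the middle and the control arrays on the right; points are single arrays and lines are group means. NEU1, TFE3, RRAGC and SQSTM1 are higher at 20 h than in both other groups, MAP1LC3B, GABARAPL1 and FNIP1 are high in both treated groups, and ATP6V0D1 is low at 8 h.

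Promoter sequence was available for 34 of the 40 genes from RefSeq (GRCh38.p14), as windows of 300 bases, 250 before and 50 after the annotated start. These windows were searched on both strands for 5 short motifs. CACGTG is the core of the E-box bound by TFEB, TFE3 and other factors of the basic helix-loop-helix class. TCACGTGA is a longer form of it, so each match to it also counts for the shorter form. The AP-1 element is TGANTCA, the composite element bound by ATF4 with a C/EBP partner is TGATGNAA, and GTAAACA is the forkhead element. The E-box core CACGTG was in 10 of the 34 windows (29.4%), against 7.43% of all 27305 windows and 8.88% of the 15843 windows of coding genes. TCACGTGA was in 5 of the 34 (14.7%), against 1.04% and 1.43%. TGANTCA was in 2 (5.88%, against 7.76% and 5.75%), GTAAACA in 1 (2.94%, against 3.41% and 2.61%) and TGATGNAA in 0 (against 3.67% and 2.53%). Of the 13 genes with a window that were called higher in a comparison with control, 4 had CACGTG (NEU1, FNIP1, RRAGC and ATG14), as did 2 of the 6 called lower (ATG3 and ATP6V0D1). The longer TCACGTGA was in 0 of these 13 and in 2 of the 6, again ATG3 and ATP6V0D1. FLCN, MAP1LC3B and GABARAPL1, which were called higher, had windows with none of the 5 motifs. CACGTG was also present in LAMP1, CTSA, CTSD and MCOLN1, none of which was called in any comparison. A match describes these letters only, not a site in use.

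The 250 bases before the start of RRAGC (chr1:38859773-38860022, minus strand), FNIP1 (chr5:131797018-131797267, minus strand) and TFE3 (chrX:49043358-49043607, minus strand) are shown because these nutrient-sensing genes rose and their windows differ in motif, with CACGTG in FNIP1, TGANTCA in TFE3 and both in RRAGC. Capitals mark the matches, and each sequence runs 5′ to 3′ on the gene's strand.
RRAGC: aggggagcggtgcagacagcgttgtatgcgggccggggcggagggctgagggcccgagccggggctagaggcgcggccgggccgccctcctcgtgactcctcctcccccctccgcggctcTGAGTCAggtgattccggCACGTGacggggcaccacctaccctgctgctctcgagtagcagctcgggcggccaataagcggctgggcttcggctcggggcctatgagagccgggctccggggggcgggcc
FNIP1: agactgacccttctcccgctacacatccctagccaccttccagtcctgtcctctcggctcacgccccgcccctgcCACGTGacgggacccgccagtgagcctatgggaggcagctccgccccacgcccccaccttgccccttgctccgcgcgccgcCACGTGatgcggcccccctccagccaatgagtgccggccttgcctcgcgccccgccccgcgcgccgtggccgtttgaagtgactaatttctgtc
TFE3: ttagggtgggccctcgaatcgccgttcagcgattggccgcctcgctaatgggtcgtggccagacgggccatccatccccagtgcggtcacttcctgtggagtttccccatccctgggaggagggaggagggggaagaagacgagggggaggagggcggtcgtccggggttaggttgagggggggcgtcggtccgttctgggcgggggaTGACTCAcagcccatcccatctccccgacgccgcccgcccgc

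Among the 9 genes of lysosomal hydrolases and their cofactors, 3 rose at 20 h (NEU1, GLA and CTSL), CTSZ fell and 5 were not called. At 8 h 1 rose (GLA) and 0 fell. The shares higher and lower were 33.3% and 11.1% at 20 h, against 20.0% and 31.1% of genes at or above the median level. At 8 h they were 11.1% and 0%, against 10.7% and 11.2% of those genes. The sialidase NEU1 removes terminal sialic acid from glycoproteins and glycolipids in the lysosome. NEU1 read 7.80, 7.97 and 8.00 on the 20 h arrays, 6.64, 6.59 and 6.29 on the 8 h arrays and 6.41, 6.25 and 6.49 on the control arrays. The 20 h arrays were far above the others, and the 8 h and control arrays overlapped. NEU1 was 2.91-fold higher at 20 h than in control cells (log2 difference 1.54, SE 0.11, limma adjusted p = 4.3e-06) and 2.68-fold higher than at 8 h (adjusted p = 2.46e-05), with a difference of 0.12 between 8 h and control (adjusted p = 0.593). It was the only one of the 40 genes with several probe sets. All 8 gave log2 differences between 1.52 and 1.54 at 20 h and between 0.09 and 0.12 at 8 h. Most of these probe sets had the same mean level (6.70) and the same differences, so they do not count as 8 separate measurements.

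The window before the NEU1 start (chr6:31862822-31863071, minus strand) is shown for the gene with the largest difference, with its CACGTG in capitals.
NEU1: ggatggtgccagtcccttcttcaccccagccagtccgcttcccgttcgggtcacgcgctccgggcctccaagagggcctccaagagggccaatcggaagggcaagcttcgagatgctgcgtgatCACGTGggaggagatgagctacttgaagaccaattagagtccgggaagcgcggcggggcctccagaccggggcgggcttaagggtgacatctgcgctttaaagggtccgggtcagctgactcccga

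GLA, the lysosomal alpha-galactosidase A, was at 7.95, 7.89 and 7.95 at 20 h, 7.79, 7.73 and 7.82 at 8 h and 7.31, 7.17 and 7.25 in control cells. The 3 groups did not overlap. GLA rose 1.61-fold at 20 h (log2 difference 0.69, SE 0.07, adjusted p = 5.83e-05) and 1.45-fold at 8 h (adjusted p = 0.00127), and the difference of 0.15 between 20 h and 8 h did not pass the test (adjusted p = 0.193). The cysteine protease genes CTSL and CTSZ differed by less: CTSL averaged 7.22 ± 0.06 at 20 h, 7.08 ± 0.08 at 8 h and 6.92 ± 0.10 in control cells (SD, n = 3 each), and its rise at 20 h was 0.30 (limma adjusted p = 0.019). CTSZ averaged 6.67 ± 0.09 at 20 h, 6.72 ± 0.07 at 8 h and 6.95 ± 0.08 in control cells (SD, n = 3 each) and fell by 0.28 at 20 h (limma adjusted p = 0.029). Both calls were lost in some alternative settings, that of CTSZ after a further quantile normalization (adjusted p = 0.2).

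HEXA, the alpha subunit of beta-hexosaminidase, was called between the treated groups and in neither comparison with control, with 6.49, 6.56 and 6.52 at 20 h and 6.34, 6.25 and 6.05 at 8 h, against 6.34, 6.39 and 6.20 in control cells. Its 20 h arrays were above those of both other groups. The difference was 0.31 between 20 h and 8 h (adjusted p = 0.0376) and 0.21 between 20 h and control (adjusted p = 0.121). The call between 20 h and 8 h was lost in 7 of 19 alternative settings, among them centring on array medians (adjusted p = 0.0697) and leaving out any of 6 arrays. The other hydrolase and cofactor genes were not called in any comparison. The aspartic protease gene CTSD had means of 10.83 at 20 h, 10.98 at 8 h and 10.83 in control cells, and a difference of 0.00 at 20 h. Between 20 h and 8 h CTSD differed by -0.15, and was called lower only after a further quantile normalization (-0.37, adjusted p = 0.00432). The saposin precursor gene PSAP differed by 0.18 at 20 h and 0.11 at 8 h. Differences of -0.17 at 20 h and -0.21 at 8 h were seen for CTSA, the protective protein that holds NEU1 in its active complex, and of -0.10 at 20 h and -0.04 at 8 h for the cysteine protease gene CTSB. CTSA arrays at both times lay below all control arrays, but the adjusted p was 0.107 at 20 h and 0.0998 at 8 h. With a robust variance and trend the 8 h difference of CTSA was called (adjusted p = 0.0461).

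Of the 5 genes of the lysosomal membrane and its acidification, 0 were called at 20 h relative to control. In that comparison 20.0% of genes at or above the median level were higher and 31.1% lower. At 8 h 1 of the 5 fell (20%), against 11.2% of those genes. That gene was ATP6V0D1, a subunit of the membrane sector of the proton pump (V-ATPase) that acidifies the lysosome. ATP6V0D1 was at 7.28, 7.32 and 7.11 on the 20 h arrays, 6.72, 6.65 and 6.46 on the 8 h arrays and 6.98, 6.97 and 7.17 on the control arrays. The 8 h arrays were below all others, while the 20 h and control arrays overlapped. It fell by 0.43 on the log2 scale at 8 h (SE 0.10, limma adjusted p = 0.0201) and was 1.55-fold higher at 20 h than at 8 h (adjusted p = 0.00153), with a difference of 0.20 between 20 h and control (adjusted p = 0.181). Without control replicate 3 the 8 h difference was -0.37, with an adjusted p of 0.0516.

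LAMP1, a major glycoprotein of the lysosomal membrane, read 7.55, 7.66 and 7.70 at 20 h, 7.33, 7.52 and 7.24 at 8 h and 7.65, 7.54 and 7.53 in control cells. Its 8 h arrays lay below the other groups, but no comparison passed the test. The LAMP1 difference was 0.06 at 20 h (adjusted p = 0.677), -0.21 at 8 h (adjusted p = 0.2) and 0.27 between them (adjusted p = 0.0618). That LAMP1 difference between 20 h and 8 h was called in 4 of 19 alternative settings (adjusted p down to 0.0236). LAMP2, its relative, which also acts in chaperone-mediated autophagy, gave 8.36, 8.25 and 8.04 at 20 h, 8.48, 8.44 and 8.49 at 8 h and 8.65, 8.48 and 8.20 in control cells. The 20 h arrays were below the 8 h arrays and overlapped the controls, and the difference at 20 h was -0.23 (adjusted p = 0.205). Control replicate 3 was the lowest LAMP2 control, and without it the difference was -0.35 at 20 h, with a limma adjusted p of 0.0346, and -0.09 at 8 h, against 0.03 with it. The calcium channel gene MCOLN1 (TRPML1) overlapped between all groups, with 7.18, 7.05 and 7.05 at 20 h, 7.22, 7.12 and 6.77 at 8 h and 6.99, 6.75 and 7.35 in control cells, and differences of 0.06 at 20 h and 0.01 at 8 h. The highest MCOLN1 control was replicate 3, and without it these differences were 0.22 at 20 h (adjusted p = 0.283) and 0.17 at 8 h (adjusted p = 0.544). ATP6V1H, a subunit of the cytosolic sector of the pump, differed by -0.05 at 20 h and -0.01 at 8 h.

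The windows of ATP6V0D1 (chr16:67481158-67481407, minus strand) and MCOLN1 (chr19:7522374-7522623, plus strand) are shown because both hold the longer TCACGTGA, in capitals, while ATP6V0D1 fell at 8 h and MCOLN1 was not called in any comparison.
ATP6V0D1: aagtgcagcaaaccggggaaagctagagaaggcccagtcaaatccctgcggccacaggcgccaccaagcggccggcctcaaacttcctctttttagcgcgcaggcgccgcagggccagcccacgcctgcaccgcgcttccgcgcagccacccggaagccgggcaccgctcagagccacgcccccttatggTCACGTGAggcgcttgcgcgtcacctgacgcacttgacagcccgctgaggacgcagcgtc
MCOLN1: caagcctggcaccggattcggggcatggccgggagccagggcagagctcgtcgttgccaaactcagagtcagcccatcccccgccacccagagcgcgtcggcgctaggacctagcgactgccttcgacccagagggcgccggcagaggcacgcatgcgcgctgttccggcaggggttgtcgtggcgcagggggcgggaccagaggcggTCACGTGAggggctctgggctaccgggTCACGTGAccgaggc

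Among the 9 genes of the conjugation machinery and the ATG8 proteins, 5 were called at 20 h and 3 at 8 h. The shares higher and lower at 20 h, 22.2% and 33.3%, were near the 20.0% and 31.1% of genes at or above the median level. At 8 h the shares were 33.3% and 0%, against 10.7% and 11.2% of those genes. At 20 h the ATG8 genes MAP1LC3B and GABARAPL1 rose, the enzyme and ligase genes ATG7, ATG3 and ATG5 fell, and 4 were not called. At 8 h 3 rose (MAP1LC3B, GABARAPL1 and ATG12) and 0 fell. MAP1LC3B encodes LC3B, the ATG8 protein most used to mark autophagosomes. It read 5.24, 5.07 and 5.25 on the 20 h arrays, 5.06, 5.03 and 5.27 on the 8 h arrays and 3.94, 4.03 and 4.36 on the control arrays. All treated arrays were above all control arrays and the treated groups overlapped. MAP1LC3B was 2.11-fold higher at 20 h (log2 difference 1.07, SE 0.12, limma adjusted p = 7.69e-05) and 2.01-fold higher at 8 h (adjusted p = 0.00058), with a difference of 0.07 between the treated groups (SE 0.12, adjusted p = 0.749). Control replicate 3 was the highest control, and without it the log2 difference was 1.20 at 20 h and 1.13 at 8 h. The near-identical gene MAP1LC3B2 has a probe set of its own, which was called higher by 0.34 at 20 h (adjusted p = 0.0388) and by 0.40 at 8 h (adjusted p = 0.0374). How far probes share signal between the 2 genes was not tested.

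GABARAPL1, a member of the GABARAP branch, was at 5.95, 6.01 and 6.07 at 20 h, 6.03, 5.81 and 5.999 at 8 h and 4.69, 4.83 and 5.04 in control cells. Again all treated arrays were above all control arrays, and the treated groups overlapped. It was 2.23-fold higher at 20 h (log2 difference 1.16, SE 0.10, limma adjusted p = 1.77e-05) and 2.14-fold higher at 8 h (log2 difference 1.10, adjusted p = 0.000137). The other GABARAP genes were not called, with differences of 0.15 at 20 h and -0.02 at 8 h for GABARAP and of 0.14 at 20 h and 0.07 at 8 h for GABARAPL2.

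ATG7 is the E1-like enzyme that activates ATG12 and the ATG8 proteins. ATG7 read 5.94, 5.74 and 5.49 on the 20 h arrays, 5.99, 5.99 and 5.98 on the 8 h arrays and 6.36, 6.17 and 6.42 on the control arrays. The 3 groups did not overlap, with the 20 h arrays lowest and the control arrays highest. ATG7 fell by 0.59 on the log2 scale at 20 h (SE 0.12, limma adjusted p = 0.00269), and its difference of -0.33 at 8 h did not pass the test (adjusted p = 0.102). The E2-like enzyme gene ATG3 averaged 7.70 ± 0.18 at 20 h, 8.02 ± 0.05 at 8 h and 8.05 ± 0.08 in control cells (SD, n = 3 each), a fall of 0.35 at 20 h (limma adjusted p = 0.0195). ATG5, part of the ligase that attaches ATG8 proteins to lipid, averaged 6.41 ± 0.15 at 20 h, 6.75 ± 0.08 at 8 h and 6.85 ± 0.14 in control cells (SD, n = 3 each) and fell by 0.45 at 20 h (limma adjusted p = 0.00769). For both ATG3 and ATG5 the 20 h arrays were below all 8 h and control arrays, and both were also lower at 20 h than at 8 h (adjusted p = 0.0401 and 0.0374). These calls between 20 h and 8 h were lost in 10 of 19 alternative settings for ATG3 (adjusted p up to 0.13) and in 8 for ATG5 (up to 0.192), and the ATG3 call against control in 4.

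ATG12, the ubiquitin-like partner of ATG5, rose at 8 h. It read 6.39, 6.19 and 5.94 at 20 h, 6.61, 6.45 and 6.83 at 8 h and 6.31, 6.05 and 6.08 in control cells. The 8 h arrays were above all others, and the 20 h and control arrays overlapped. The difference was 0.48 at 8 h (adjusted p = 0.0459), 0.03 at 20 h (adjusted p = 0.916) and -0.46 between 20 h and 8 h (adjusted p = 0.0362). Its 8 h call was lost in 10 of 19 alternative settings, with an adjusted p of up to 0.16. Without control replicate 3 that 8 h difference was 0.45 (adjusted p = 0.107), and the difference between 20 h and 8 h was not called in 7 settings. ATG16L1, the scaffold of the same ligase, differed by -0.20 at 20 h (adjusted p = 0.0798) and by -0.01 at 8 h. At 20 h it was called lower without control replicate 3 (-0.24, adjusted p = 0.0472) and with array weights (adjusted p = 0.0448).

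Among the 7 genes of initiation and nucleation, ULK1 and ATG14 rose and BECN1 fell, at 20 h and at 8 h, and the other 4 were not called in either comparison with control. The shares higher and lower were 28.6% and 14.3% at each time. Of genes at or above the median level, 20.0% were higher and 31.1% lower at 20 h, and 10.7% and 11.2% at 8 h. ULK1 encodes the kinase that starts autophagosome formation. It read 5.40, 5.43 and 5.32 at 20 h, 5.27, 5.21 and 5.16 at 8 h and 4.69, 4.68 and 4.94 in control cells. The 3 groups did not overlap. ULK1 was 1.53-fold higher at 20 h (log2 difference 0.62, SE 0.09, limma adjusted p = 0.000421) and 1.36-fold higher at 8 h (adjusted p = 0.00964). The difference of 0.17 between 20 h and 8 h did not pass the test (adjusted p = 0.211).

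ATG14 directs the class III PI3-kinase complex to sites of autophagosome formation, and BECN1 is a core subunit of that complex. ATG14 read 7.16, 7.29 and 7.23 at 20 h, 6.91, 6.92 and 7.14 at 8 h and 6.62, 6.56 and 6.52 in control cells, again without overlap. It rose 1.58-fold at 20 h (adjusted p = 0.00022) and 1.34-fold at 8 h (adjusted p = 0.0107). BECN1 was at 7.69, 7.69 and 7.62 at 20 h, 7.66, 7.69 and 7.66 at 8 h and 8.15, 8.02 and 7.81 in control cells. All treated arrays were below all control arrays, but the falls were small, 0.33 at 20 h (SE 0.09, adjusted p = 0.0212) and 0.33 at 8 h (adjusted p = 0.0456). The 8 h call was lost in 12 of 19 alternative settings and the 20 h call in 4.

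WIPI1, which binds the lipid made by that complex, was called between the treated groups and in neither comparison with control. It averaged 7.13 ± 0.05 at 20 h, 6.84 ± 0.11 at 8 h and 7.02 ± 0.01 in control cells (SD, n = 3 each). The 8 h arrays were the lowest, and the difference was 0.30 between 20 h and 8 h (limma adjusted p = 0.0229), a call lost in 4 of 19 alternative settings. Its relative WIPI2 differed by 0.23 at 20 h and 0.20 at 8 h, the second ULK kinase gene ULK2 by -0.21 at 20 h and -0.04 at 8 h, and ATG13, the regulatory partner of the ULK kinases, by -0.06 at 20 h and 0.20 at 8 h. None of these 3 passed the test in any comparison. In alternative settings WIPI2 was called higher without control replicate 1 at 20 h (adjusted p = 0.0144) and at 8 h (adjusted p = 0.0489). WIPI2 was also called higher at 20 h after a further quantile normalization (adjusted p = 0.0236). ATG13 was called lower at 20 h than at 8 h in 2 of 19 settings (adjusted p down to 0.0424).

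Of the 4 cargo receptor genes, SQSTM1 rose at 20 h, and 0 were called at 8 h. The shares higher and lower at 20 h were 25% and 0%, against 20.0% and 31.1% of genes at or above the median level. At 8 h 10.7% of those genes were higher and 11.2% lower. SQSTM1 encodes p62, which binds ubiquitinated cargo and ATG8 proteins and is itself degraded by autophagy. It read 7.29, 7.51 and 7.43 on the 20 h arrays, 6.87, 6.96 and 6.76 on the 8 h arrays and 6.67, 6.63 and 6.96 on the control arrays. The 20 h arrays were above all others, and the 8 h and control arrays overlapped. SQSTM1 was 1.58-fold higher at 20 h than in control cells (log2 difference 0.66, SE 0.11, limma adjusted p = 0.000887) and 1.46-fold higher than at 8 h (adjusted p = 0.00457). Control replicate 3 was the highest control, and without it the difference from control was 0.76 at 20 h and 0.21 at 8 h (adjusted p = 0.209), against 0.11 at 8 h with it.

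TAX1BP1, a receptor related to NDP52, a receptor for invading bacteria, averaged 8.45 ± 0.09 at 20 h, 8.89 ± 0.14 at 8 h and 8.50 ± 0.30 in control cells (SD, n = 3 each). Its 8 h arrays were above all others, and it was lower at 20 h than at 8 h by 0.45 (limma adjusted p = 0.0453), while the 8 h difference of 0.39 from control was not called (adjusted p = 0.11). Control replicate 3 was the lowest control, and without it the difference from control was -0.22 at 20 h in place of -0.05, and 0.22 at 8 h. The call between 20 h and 8 h was lost in 9 of 19 alternative settings, with an adjusted p of up to 0.156. OPTN, the optineurin receptor, read 7.23, 7.28 and 7.23 at 20 h, 7.29, 7.35 and 7.38 at 8 h and 7.12, 7.21 and 6.69 in control cells. All treated arrays were above all controls, but control replicate 3 lay far below the rest, and the difference of 0.24 at 20 h was 0.08 without it, and that of 0.34 at 8 h was 0.18. NBR1, a receptor with a ubiquitin-binding domain like that of p62, differed by -0.03 at 20 h and -0.07 at 8 h and was not called. Its differences were -0.13 at 20 h and -0.17 at 8 h without control replicate 3, again not called (adjusted p = 0.234 and 0.204).

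**Figure D3:**
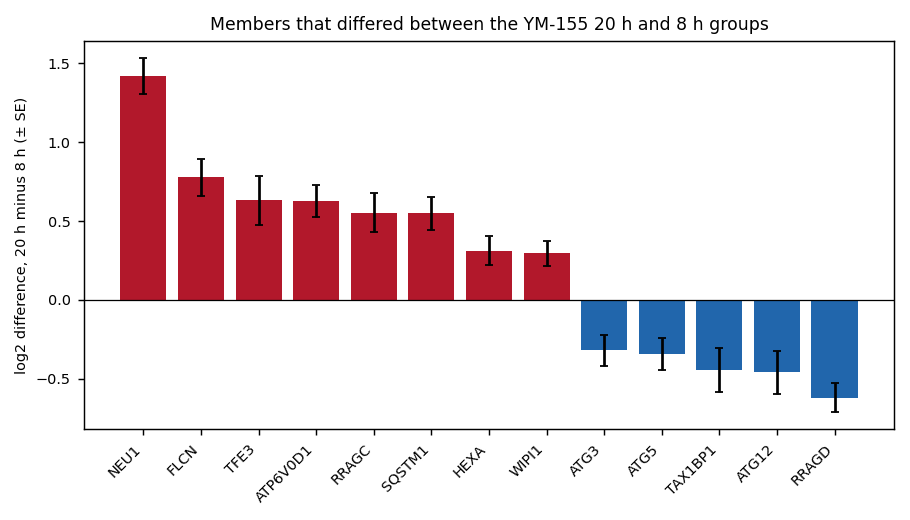
Log2 difference between the 20 h and 8 h arrays (columns) for the 13 of the 40 genes with an adjusted p under 0.05, with error bars of 1 SE from the limma fit. NEU1 (1.42) and FLCN (0.78) are highest and RRAGD (-0.62) is lowest.

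The comparison of 20 h with 8 h uses no control array, but shares the 20 h arrays with the comparison of 20 h with control. Of its 8 genes called higher, NEU1, FLCN, RRAGC, TFE3 and SQSTM1 had also been called at 20 h against control, whereas ATP6V0D1, WIPI1 and HEXA had not. Of its 5 called lower, RRAGD, ATG3 and ATG5 had been called lower at 20 h against control, and ATG12 and TAX1BP1 had not. MAP1LC3B, GABARAPL1 and FNIP1, which rose in both treated groups, differed between those groups by 0.07, 0.06 and 0.05, each less than its SE.

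**Figure D4:**
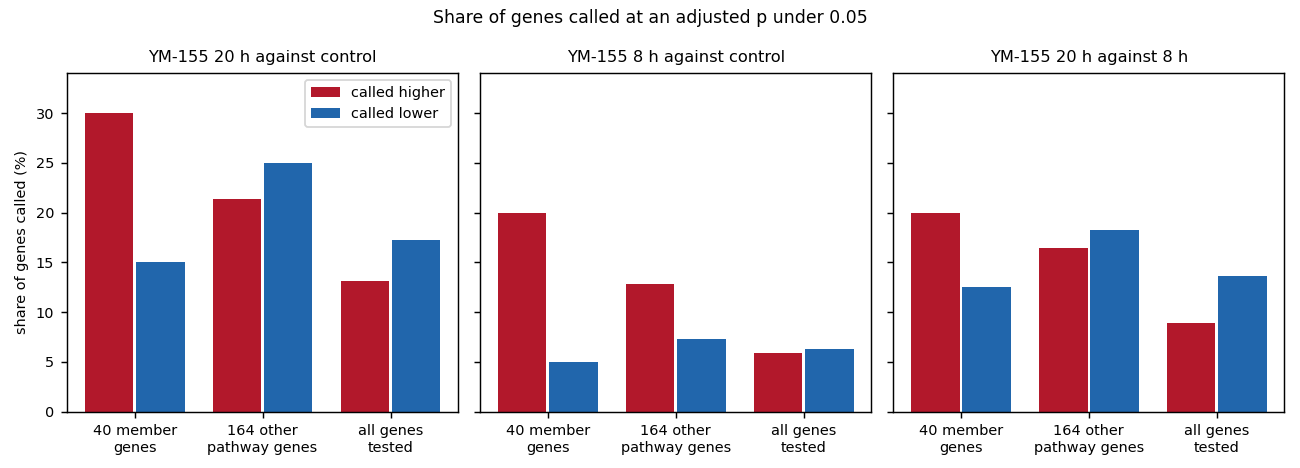
Share of genes called higher and lower (percent) among the 40 genes, among 164 other genes of the same pathways and among all 22109 genes tested, in each of the 3 comparisons. At 20 h 30% of the 40 genes are called higher against 13.1% of all genes, and 15% lower against 17.2%.

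A further 184 genes of the same pathways, in 7 lists, were counted for comparison, and 164 of them were measured. At 20 h 35 of the 164 were higher (21.3%) and 41 lower (25.0%), at 8 h 21 were higher (12.8%) and 12 lower (7.32%), and between 20 h and 8 h 27 were higher (16.5%) and 30 lower (18.3%). Over all genes 13.1% were higher and 17.2% lower at 20 h, 5.93% and 6.28% at 8 h, and 8.95% and 13.6% between 20 h and 8 h. Among genes at or above the median level 20.0% were higher and 31.1% lower at 20 h, 10.7% and 11.2% at 8 h, and 13.4% and 24.8% between 20 h and 8 h. The shares of the 164 called higher at 20 h and at 8 h were near that background. In each comparison their share called lower was below it. The 164 were not chosen by level, and some, such as ATG10 and MAP1LC3C, lay below the median. No single list was tested against either background. The mTORC1 and amino acid sensing list had 9 of 36 higher and 7 lower at 20 h, and 8 higher and 1 lower at 8 h. SESN2 and SESN3 encode sestrins, which restrain mTORC1. SESN2 rose by 2.65 at 20 h (adjusted p = 1.92e-05) and 1.42 at 8 h (adjusted p = 0.00405), and SESN3 by 1.62 at 20 h (adjusted p = 1.46e-05) and 1.17 at 8 h (adjusted p = 0.000608). FNIP2, the other FLCN partner, rose by 0.89 at 20 h (adjusted p = 1.42e-05) and 0.97 at 8 h (adjusted p = 5.35e-05). DDIT4, another mTORC1 inhibitor gene, rose by 0.87 at 8 h (adjusted p = 0.00148) and differed by 0.31 at 20 h (adjusted p = 0.0876). AKT1S1, an inhibitory subunit of mTORC1, rose by 1.06 at 20 h (adjusted p = 0.0013), and PRKAA1, a catalytic subunit of AMPK, fell by 0.96 (adjusted p = 4.52e-05).

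Of 17 transcriptional regulators of autophagy, 7 were higher (41.2%) and 3 lower (17.6%) at 20 h, and 5 higher (29.4%) and 1 lower (5.88%) at 8 h. Over all genes 13.1% were higher and 17.2% lower at 20 h, and 5.93% and 6.28% at 8 h. Among genes at or above the median level these shares were 20.0% and 31.1% at 20 h, and 10.7% and 11.2% at 8 h. MITF, of the same family as TFEB and TFE3, rose by 1.04 at 20 h (adjusted p = 4.2e-05) and 0.54 at 8 h (adjusted p = 0.00847). The stress-response factor gene ATF4 rose by 1.10 at 20 h (adjusted p = 1.64e-05) and 0.67 at 8 h (adjusted p = 0.00171), and DDIT3, which encodes CHOP, by 1.60 at 20 h (adjusted p = 0.000182). At 8 h NFE2L2 and FOXO3, which encode NRF2 and a forkhead factor, rose by 0.87 and 0.77 (adjusted p = 0.000136 and 0.00112). ZKSCAN3, known as a repressor of autophagy genes, fell by 1.40 at 20 h (adjusted p = 0.000589) and by 1.59 at 8 h (adjusted p = 0.00108).

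Of 29 other hydrolases and cofactors, 5 were higher (17.2%) and 11 lower (37.9%) at 20 h. Over all genes these shares were 13.1% and 17.2%, and among genes at or above the median level 20.0% and 31.1%. LGMN, the asparagine endopeptidase legumain, rose by 1.41 at 20 h (adjusted p = 3.46e-06) and, at 8 h, by 0.49 (adjusted p = 0.0103). ACP2, a lysosomal acid phosphatase, and PPT1, a thioesterase that removes palmitate from proteins, fell by 0.90 and 0.88 at 20 h (adjusted p = 0.000397 and 3.72e-05). Of 24 other membrane proteins, 2 were higher (8.33%) and 8 lower (33.3%) at 20 h. In that comparison 20.0% of genes at or above the median level were higher and 31.1% lower, so only the share lower was near this background. SLC38A9, a lysosomal arginine sensor upstream of mTORC1, fell by 1.21 (adjusted p = 5.74e-05) and MFSD8, the gene altered in one form of neuronal ceroid lipofuscinosis, by 1.13 (adjusted p = 0.000276). Of 20 other V-ATPase subunits, 3 were higher (15%) and 3 lower (15%) at 20 h, while 0 passed the test in either direction at 8 h. At 8 h 5.93% of all genes were higher and 6.28% lower, and 10.7% and 11.2% of those at or above the median level. ATP6V0C, the ring subunit, rose by 0.87 and ATP6V1G1, a stalk subunit, by 0.85 at 20 h (adjusted p = 0.00279 and 1.36e-05), and ATP6V0A1, which anchors the pump in the membrane, fell by 0.76 (adjusted p = 0.000132).

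Of 27 other core autophagy genes, 6 were higher (22.2%) and 8 lower (29.6%) at 20 h, near the 20.0% and 31.1% of genes at or above the median level. At 8 h 5 were higher (18.5%) and 4 lower (14.8%), against 10.7% and 11.2% of genes at or above that level. ATG4C, a protease that processes ATG8 proteins, fell by 1.56 at 20 h (adjusted p = 2.06e-05) and 0.80 at 8 h (adjusted p = 0.00534). PIK3R4, the VPS15 subunit of the class III PI3-kinase complex that also holds BECN1, fell by 0.72 at 20 h (adjusted p = 0.000163) and 0.64 at 8 h (adjusted p = 0.00149). ATG101, a partner of ATG13, rose by 0.83 at 20 h (adjusted p = 3.2e-05). WDR45B, a relative of the WIPI proteins, rose by 0.52 at 20 h (adjusted p = 0.000345) and 0.78 at 8 h (adjusted p = 0.000124). TMEM41B, a lipid scramblase, rose by 0.78 at 8 h (adjusted p = 0.00745) and differed by 0.34 at 20 h (adjusted p = 0.117). Of 11 other selective receptors, 3 were higher (27.3%) and 1 lower (9.09%) at 20 h, with TOLLIP, a ubiquitin-binding adaptor, higher by 0.96 (adjusted p = 4.52e-05). At 8 h 1 was higher (9.09%), the mitophagy receptor gene BNIP3L, by 0.35 (adjusted p = 0.0208).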

How the data were processed

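Gene expression was measured on 9 arrays, 3 per group. Per the submitters' processing notes, the authors ran RMA in Affymetrix Expression Console before the log2 values were deposited, 1 per probe set and array. The range of the values shows the log2 scale, and array medians ran from 3.11 to 3.20. Software versions and the genome build are not given in the sources used here. Arrays give no read depth, so precision is set by the number of arrays.

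Of 53617 probe sets, 23558 had 1 symbol in the platform table and 2155 had several, which were left out, as were those outside the table. Symbols were updated through gene identifiers (3 changed). For the 618 genes with several probe sets the one with the highest mean over the 9 arrays was kept, which left 22109 genes with no filter on level. All 9 arrays were fitted by group in limma 3.58.1 (R 4.3.3, lmFit and eBayes; 6 residual and 4.01 prior degrees of freedom). Tests were two-sided, and p-values were adjusted over all genes. With 3 arrays per group, the smallest p of an exact permutation test is 0.1, so it was not used. Genes given on every array are those called with an absolute log2 difference of at least 0.5, with MAP1LC3B, SQSTM1, LAMP1, LAMP2, TFEB and TFE3; array values of BECN1, HEXA, ATG12, MCOLN1 and OPTN were added after their values were seen. Of the other lists, genes with the largest called differences are named. The 40 genes, the 7 other lists, the alternatives and the naming rule were chosen with earlier results of these data known. Alternatives were a filter on dim genes, other handling of probe sets, further quantile normalization, centring on array medians, fitting the 2 groups compared by themselves, array weights, a robust variance with trend, the replicate number as a block, 8 h replicates 1 and 2 as 1 sample, and leaving out each array. The 8 h replicates 1 and 2 were the closest pair of arrays (SD of their difference 0.147 over genes at or above the median level). Several genes had equal values on more than 1 array, among them ATG7, FLCN and ATG5 on these 2 arrays. The cause was not tested, and a small SD in such genes need not reflect agreement between cultures. Tables were made in pandas 2.3.3 with numpy 2.4.6 (Python 3.11.15), and plots in matplotlib 3.10.9.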

Additional observations from a re-analysis of the deposited data

Results flagged for a closer look

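The difference between the 20 h and 8 h arrays passed the test in 13 of the 40 genes, so that the treated groups differed from each other there (limma, adjusted over all genes). Of the 40, 20% were higher and 12.5% lower, against 8.95% and 13.6% of all genes. Among genes at or above the median level these shares were 13.4% and 24.8%. The difference was 1.42 for NEU1, 0.78 for FLCN, 0.63 for TFE3, 0.63 for ATP6V0D1, 0.55 for RRAGC, 0.55 for SQSTM1, 0.31 for HEXA and 0.30 for WIPI1. It was -0.32 for ATG3, -0.34 for ATG5, -0.45 for TAX1BP1, -0.46 for ATG12 and -0.62 for RRAGD. Of these, NEU1, FLCN, ATP6V0D1, RRAGC, SQSTM1 and RRAGD kept their call in all 19 alternative settings, and the other 7 lost it in at least 1. Dose and time differed together between these groups, so their parts cannot be told apart.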

How the results depend on the processing

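There were 41 calls on the 40 genes over the 3 comparisons. Of these, 26 held in all 19 settings, 15 were lost in at least 1 and 0 reversed. A further 13 differences that had not been called were called in at least 1 setting. They were WIPI2 and CTSA at 8 h, and WIPI2, ATG16L1, LAMP2, HEXA and ATP6V0D1 at 20 h against control. The others were ULK1, ATG7, ATG13, ATG14, LAMP1 and CTSD between 20 h and 8 h. The calls that held include NEU1, FLCN, TFE3, RRAGC, RRAGD, FNIP1, MAP1LC3B, GABARAPL1, ULK1, ATG14, GLA, SQSTM1, ATG5 and ATG7 at 20 h against control. At 8 h the calls of BECN1, ATG12, FLCN and ATP6V0D1 were lost in some settings, and at 20 h against control those of BECN1, ATG3, CTSL and CTSZ. Leaving out 1 array ended the 8 h call of BECN1 (adjusted p up to 0.145, without control 1), ATG12 (0.16, without 8 h replicate 3), FLCN (0.157, without control 1) and ATP6V0D1 (0.0733, without 8 h replicate 3). It ended the 20 h call of BECN1 (0.08, without control 1), ATG3 (0.0708, without 20 h replicate 3), CTSL (0.0625, without control 2) and CTSZ (0.0966, without control 2). Between 20 h and 8 h the calls of TAX1BP1, WIPI1, ATG3, ATG5, ATG12, HEXA and TFE3 were each lost without at least 1 array (TFE3 0.0679, without 8 h replicate 3).

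The number of the 40 genes lower at 8 h, 2, became 1 after centring on array medians, with only the 2 groups compared, with the replicate block and with 8 h replicates 1 and 2 as 1 sample, and 0 to 1 when 1 array was left out. The number higher at 8 h, 8, was 6 to 7 when 1 array was left out and 6 with the replicate block. At 20 h against control, 12 higher and 6 lower became 11 to 13 and 3 to 8 when 1 array was left out. Between 20 h and 8 h, the 5 genes lower became 2 after a further quantile normalization, 3 with only the 2 groups compared, 3 with the replicate block and 1 with 8 h replicates 1 and 2 as 1, and 1 to 6 when 1 array was left out, while the 8 higher became 6 to 8. For the 164 other genes, 12 lower at 8 h became 23 among genes above the median level, 22 with array weights, 6 with 8 h replicates 1 and 2 as 1 and 6 to 15 when 1 array was left out. Their 27 higher between 20 h and 8 h became 16 to 27 when 1 array was left out, and their 30 lower 19 with 8 h replicates 1 and 2 as 1 and 11 to 35 when 1 array was left out.

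The median difference of the 40 genes was 0.0602 at 8 h (0.05 to 0.0832 when 1 array was left out). At 20 h it was 0.0883, and 0.132 after quantile normalization, 0.0599 after centring and 0.0657 to 0.1513 when 1 array was left out. Between 20 h and 8 h it was 0.0527, and 0.0903 after quantile normalization, 0.0172 after centring and 0.0239 to 0.0527 when 1 array was left out. The cause of these changes was not tested. The alternatives for the 164 other genes and the reading of the other NEU1 probe sets were chosen after seeing the data. Same-numbered arrays had deviations from their group means that correlated between -0.318 and 0.111. With 3 arrays per group, these values cannot show whether same-numbered arrays shared a culture or day.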
